A study of Mus musculus with 30 samples.

Results

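The comparison described here is that of the heart in *Mtm1*-/y mice and in wild-type (WT) littermates. Its members were the 8 libraries whose labels give heart as the tissue, 4 *Mtm1*-/y (labelled Mtm1KO) and 4 WT, of the 30 libraries of the series, which also covers gastrocnemius, diaphragm and liver. All were male mice on a 129Pas background, 5 weeks old. Hearts were frozen after dissection, and by the study's methods the RNA came from whole heart samples. The sources used here describe no separation of atria, ventricles, valves or attached fat. The measurement was the number of sequenced poly(A) RNA fragments per gene, 25244426 to 32028964 counts per heart library over 36103 genes, of which 6570 had no count in any heart. Levels below are in CPM, a gene's counts over the scaled total of its library on the field's usual scale, and are listed in the order WT 1 to 4 and then *Mtm1*-/y 1 to 4. A gene was called when its adjusted p was under 0.05 and its log2 fold change (*Mtm1*-/y against WT) was over 1 in size. Unless another test is named, this was edgeR's quasi-likelihood test over the 15238 genes with enough counts.

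Myotubularin, the product of *Mtm1*, is a phosphatase that removes a phosphate from phosphatidylinositol 3-phosphate and phosphatidylinositol 3,5-bisphosphate, lipids that mark endosomes. Its loss causes X-linked centronuclear myopathy, a disease of skeletal muscle in which nuclei lie in the centre of the fibre and the membrane systems that couple excitation to contraction are disorganised. Cardiac muscle is striated as well and couples excitation to contraction through a related membrane system.

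The tissue label held in all 8 libraries. *Myh6*, the alpha myosin heavy chain of the mouse heart, was between 21200 and 27700 CPM, and the summed level of 15 skeletal fibre markers lay between 55.1 and 98.1 CPM. No heart library was a copy of another, the closest pair differing by a chi-square of 10.7 per gene. The composition of the hearts was unequal, however. WT 4 was the highest or the lowest library in 57.9% of genes, against 11.4 to 30.0% for each of the others. The atrial myosin light chain *Myl7* was at 230 CPM per 100 CPM of the ventricular light chain *Myl2* in WT 4, at 11.8, 0.54 and 9.93 in WT 1 to 3, and at 0.0584, 19.0, 0.0159 and 0.117 in *Mtm1*-/y 1 to 4. The first principal component of the 8 hearts held 57.7% of the variance, its leading genes were atrial, and WT 4 lay farthest out at 47.1. The 2 genotypes crossed along it (exact permutation test of their scores, two-sided, p = 0.0857, adjusted over the components 0.4). With 4 hearts against 4 the possible splits are few, so a single component could not pass after adjustment. Since WT 4 stood apart, the DESeq2 calls of named genes that were lost without it are listed with the calls.

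**Figure D1:**
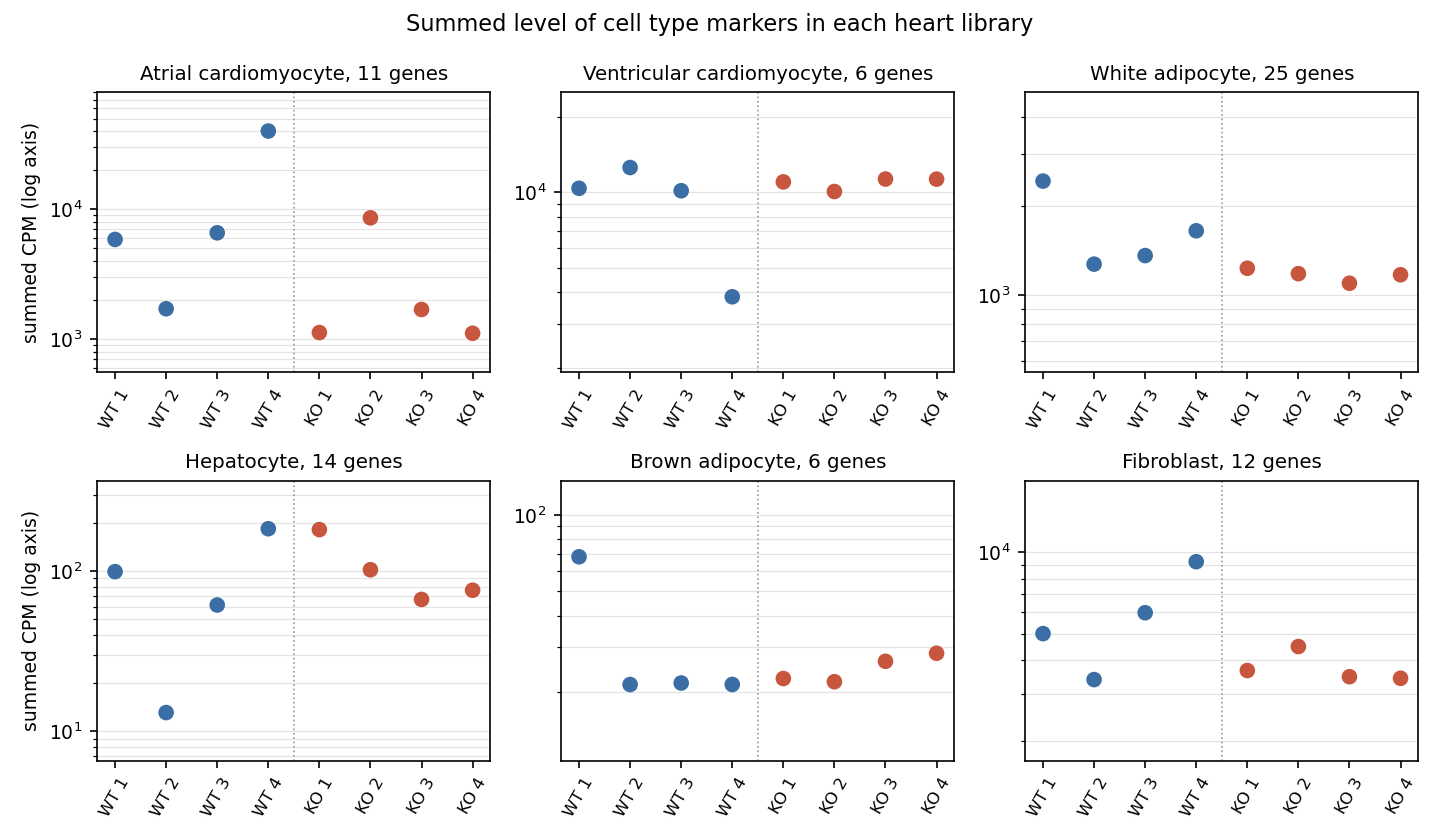
Summed level of marker genes of 6 cell types (1 panel each) in each of the 8 hearts, in CPM on a log axis, with 1 point per library (WT blue, Mtm1-/y, labelled KO, red). Atrial RNA ran from 1110 to 40100 CPM and was highest in WT 4, while white adipocyte RNA lay between 1280 and 2430 CPM in WT hearts and between 1100 and 1240 CPM in Mtm1-/y hearts.

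*Mtm1* itself (chromosome X, 71210767 to 71315691, mm10) checked the labels. It was at 25.1, 26.4, 31.7 and 25.2 CPM in the WT hearts and at 4.67, 4.83, 4.07 and 4.48 CPM in the *Mtm1*-/y hearts. The groups were far apart, with means of 27.1 ± 3.1 and 4.51 ± 0.33 CPM (SD, n = 4 each). *Mtm1* fell by 2.59 on the log2 scale (SE 0.11, edgeR adjusted p = 2.6e-05), with a 95% interval of -2.83 to -2.34. Which part of the gene the allele lacks is not given in the sources used here, so whether the remaining counts come from outside that part was not checked.

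No other enzyme of the same lipid was called. Of 24 myotubularins and enzymes of phosphatidylinositol 3-phosphate, 23 were in the table and 22 were tested. *Mtm1* was the only one called, and the intervals of the other 21 genes lay within a log2 fold change of -1 to 1. The median of the list was 0.01, beside -0.002 over all genes tested. At an unadjusted p under 0.05, 2 of the 22 were higher, beside 3.05% of all genes. With no overlap 3 were higher, beside 2.1% of all genes. By each criterion *Mtm1* was the only lower gene. Per length of gene (RPKM), *Mtm1* at 1.94 was among the least abundant of these genes in the WT heart. Its closest relative *Mtmr1* was at 6.03 RPKM in WT and 6.22 RPKM in *Mtm1*-/y, with a log2 fold change of 0.04 (95% interval -0.10 to 0.18). *Mtmr2*, another active phosphatase of the family, was at 4.46 and 4.92 RPKM. *Pik3c2b*, a class II kinase that makes the lipid, was at 5.10 and 6.06 RPKM, a log2 fold change of 0.25 that did not pass (edgeR adjusted p = 0.55). The lipid kinase *Pik3c3* had a log2 fold change of -0.01.

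Dynamin 2, a membrane-cutting GTPase mutated in another centronuclear myopathy, lay at 1 level in both genotypes. *Dnm2* was at 86.8, 89.1, 80.0 and 81.3 CPM in WT and at 81.7, 89.2, 87.1 and 87.3 CPM in *Mtm1*-/y. The groups overlapped, and the interval of the log2 fold change, -0.11 to 0.18, was narrow. Of 11 dynamins and genes of centronuclear myopathies, 10 were tested and none was called by edgeR or DESeq2, 1 being lower at an unadjusted p under 0.05 (*Dnm1*, log2 fold change -0.37, edgeR adjusted p = 0.55). *Bin1* (0.05), *Speg* (-0.08) and *Ttn* (0.13), whose products shape membrane tubules, act as a muscle kinase and span the sarcomere, had log2 fold changes close to 0.

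Across all 15238 genes, *Mtm1* was the only call (0 higher, 1 lower, 0.00656% of those tested). At an unadjusted p under 0.05 there were 464 higher genes (3.05%) and 889 lower genes (5.83%), and 690 of the 889 were highest in WT 4. The libraries of the genotypes did not overlap in 320 genes that were higher (2.1%) and 329 that were lower (2.16%) in *Mtm1*-/y. The depth and spread of the libraries set a bound on the change of most genes. The 95% interval lay within -1 to 1 for 12411 genes (81.4%), and for 94.8% of the 8870 genes of at least 10 CPM. It lay within -0.5 to 0.5 for 7955 genes (52.2%), so smaller changes were bounded less often. DESeq2, run as an alternative, called 15 genes higher (0.0799% of 18771) and 53 lower (0.282%). Of the 53, 33 were highest in WT 4 and 15 in WT 1, and of the 15, 14 were highest in *Mtm1*-/y 1. Without WT 4, 27 of the 68 calls remained, and 19 remained in all 8 fits that left out 1 library each. Of the genes named below, *Bmp10*, *Ryr3*, *Shox2*, *Hamp*, *Inhba*, *Mt2*, *Gadd45b*, *Fgb* and *Dct* were not called by DESeq2 without WT 4.

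**Figure D2:**
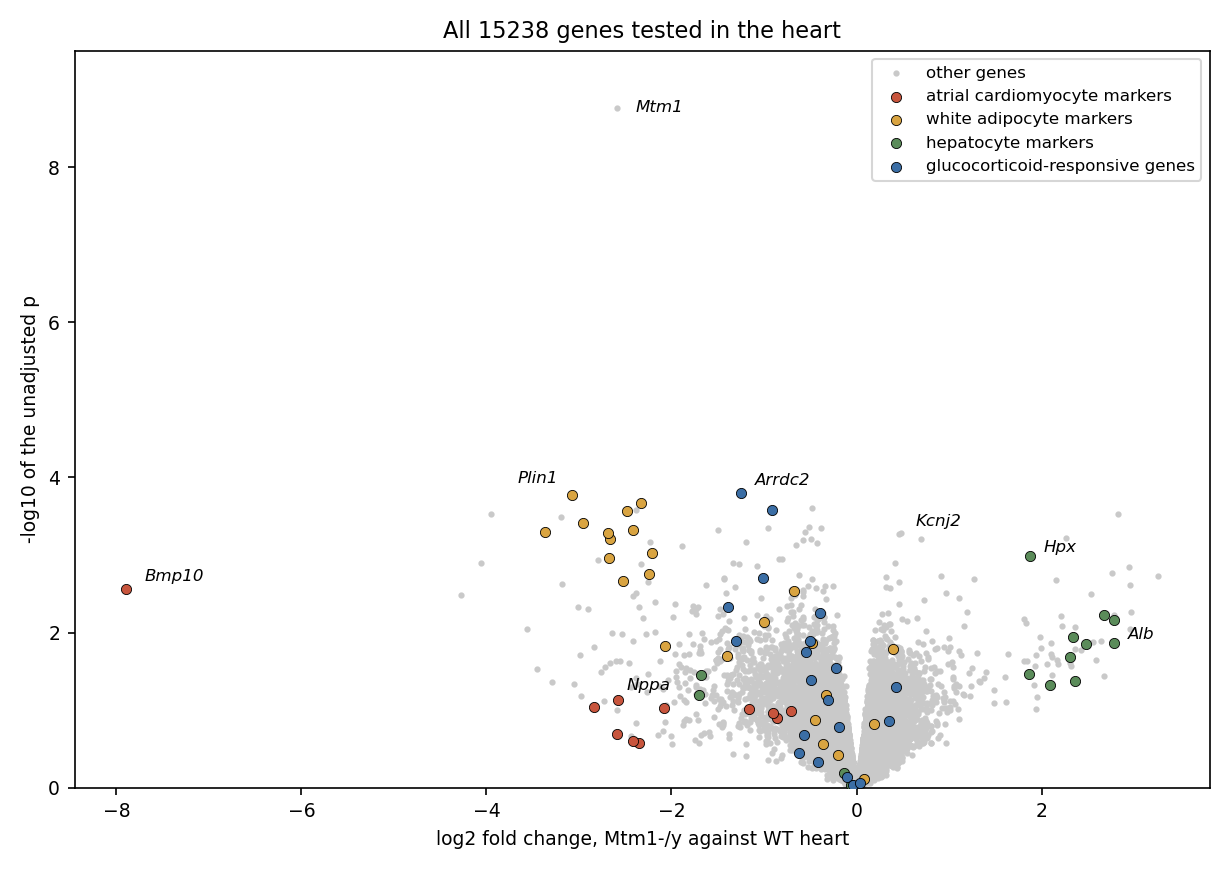
Log2 fold change of Mtm1-/y against WT hearts (horizontal axis) and -log10 of the unadjusted edgeR p (vertical axis) for each of the 15238 genes tested, with 4 gene lists in colour. Mtm1, at -2.59, stands alone at the top, white adipocyte markers lie to the left, and hepatocyte markers lie mostly to the right.

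RNA of white fat was lower in the *Mtm1*-/y hearts. Of 25 white adipocyte markers 24 were tested, 21 had an estimate below 0, 16 had libraries that did not overlap and were lower (2.16% of all genes did), and the median log2 fold change was -2.14, or -2.0 without WT 4 and -1.43 without WT 1. None passed edgeR (17 were lower and 1 higher at an unadjusted p under 0.05, beside 5.83% and 3.05% of all genes). DESeq2 called 12 lower, beside 0.282% of all genes. In bulk tissue, fewer cells of a type and less RNA per cell cannot be told apart. *Plin1*, which coats the lipid droplet, was at 18.6, 4.69, 8.86 and 21.3 CPM in WT and at 1.81, 2.06, 0.766 and 1.66 CPM in *Mtm1*-/y. Each WT heart was above each *Mtm1*-/y heart, with WT 2 the lowest of the WT. Its log2 fold change was -3.08 (SE 0.50, edgeR adjusted p = 0.35, DESeq2 adjusted p = 3.1e-08). It passed edgeR without WT 2 (-3.36, edgeR adjusted p = 0.037).

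Other products of fat cells split the genotypes in the same way. *Adipoq*, the hormone adiponectin, was at 21.7, 6.88, 8.13 and 22.4 CPM in WT and at 3.22, 2.85, 1.65 and 2.86 CPM in *Mtm1*-/y (a log2 fold change of -2.48, edgeR adjusted p = 0.35, DESeq2 1.1e-06). *Pck1*, which makes the glycerol backbone of stored fat, was at 45.9, 11.3, 21.6 and 39.8 CPM in WT and between 5.05 and 6.55 CPM in *Mtm1*-/y (-2.33, edgeR adjusted p = 0.35, DESeq2 4.2e-07). *Cidec*, which enlarges lipid droplets, was between 6.22 and 28.6 CPM in WT and between 0.846 and 2.53 CPM in *Mtm1*-/y (-2.96, edgeR adjusted p = 0.35, DESeq2 0.0013). *Lep*, the satiety hormone leptin, was at 3.60, 2.35, 0.426 and 2.88 CPM in WT and at 0.289, 0.316, 0.121 and 0.151 CPM in *Mtm1*-/y (-3.37, edgeR adjusted p = 0.35, DESeq2 0.00011). Groups were apart in all 4 genes, and the gap was narrowest for *Lep*, where WT 3 was close to the *Mtm1*-/y hearts. Not each marker moved with them, as *Fabp4* (0.19), *Pparg* (0.08) and *Aqp7* (0.40), which endothelial cells or muscle also express, had estimates above 0.

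Several genes outside the marker list had the same profile. *Hp* (haptoglobin, which binds free haemoglobin) was at 29.8, 12.4, 18.9 and 51.5 CPM in WT and at 6.11, 6.21, 3.71 and 5.46 CPM in *Mtm1*-/y (-2.39, edgeR adjusted p = 0.35, DESeq2 7.3e-07). *Nnat*, a small membrane proteolipid, was at 2.21, 2.54, 1.21 and 6.84 CPM against 0.181, 0.396, 0.403 and 0.414 CPM (-3.19, edgeR adjusted p = 0.35, DESeq2 1.3e-05). *Tmem45b* was between 0.886 and 3.90 CPM in WT and at most 0.356 CPM in *Mtm1*-/y (-3.95, edgeR adjusted p = 0.35, DESeq2 8.8e-06). With the mean log2 level of the white adipocyte markers in each heart as a covariate, the median of the fat list was -0.07 and 8 of the 68 DESeq2 calls remained. That covariate is made of the same genes and follows the genotype, so the fat content and the genotype cannot be told apart for them. Brown fat RNA was present in few hearts: *Ucp1*, the uncoupling protein of brown fat, was chosen after its values were seen and was at 28.1 CPM in WT 1, 3.33 CPM in WT 4 and at most 0.253 CPM in the other 6 hearts.

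Atrial RNA varied widely between hearts of both genotypes. All 11 atrial markers had an estimate below 0 (median -2.35), but 0 of the 11 had libraries that did not overlap, none passed edgeR, and 1 was lower at an unadjusted p under 0.05. *Nppa*, which encodes atrial natriuretic peptide, was at 1860, 662, 2450 and 19100 CPM in WT and at 148, 3100, 629 and 152 CPM in *Mtm1*-/y (a log2 fold change of -2.58, SE 1.27, edgeR adjusted p = 0.55). *Myl7* was at 857, 45.6, 704 and 4970 CPM in WT and at 4.88, 1280, 1.29 and 9.57 CPM in *Mtm1*-/y (-2.35, SE 1.98, edgeR adjusted p = 0.63). WT 2 had little *Myl7* and *Mtm1*-/y 2 had much, so the groups crossed. The median of the list was -0.72 without WT 4 and -4.28 without *Mtm1*-/y 2. *Bmp10*, a growth factor of the right atrium, was at 141, 0.476, 170 and 911 CPM against 0.0362, 4.51, 0 and 0.64 CPM and was the 1 atrial marker called by DESeq2 (-7.89, edgeR adjusted p = 0.55, DESeq2 0.023).

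Markers of the conduction system, valves and heart surface had negative medians as well. Of 10 pacemaker and conduction markers, 9 were tested, 8 had an estimate below 0 and 4 were lower at an unadjusted p under 0.05, beside 5.83% of all genes. The median was -0.81, and it was -1.52 without *Mtm1*-/y 2, -0.40 without *Mtm1*-/y 4, -0.98 without WT 4 and -0.21 with the atrial score (the mean log2 level of the atrial markers in each heart) as a covariate. *Shox2*, a transcription factor of the sinus node and pulmonary veins, was at 2.81, 0.698, 1.38 and 3.87 CPM in WT and at 0.579, 0.752, 0.202 and 0.377 CPM in *Mtm1*-/y (-2.18, edgeR adjusted p = 0.55, DESeq2 0.028). *Hcn4*, the channel of the pacemaker current, had an estimate of -0.09. All 6 valve and cartilage matrix genes tested were below 0, with a median of -1.23 that became -0.38 without WT 4, and for 8 epicardial and mesothelial markers the median moved from -0.79 to -0.12 (-1.34 without *Mtm1*-/y 2). *Ryr3*, a ryanodine receptor, was at 11.7, 2.35, 20.4 and 47.3 CPM in WT and between 1.66 and 3.36 CPM in *Mtm1*-/y (-3.18, edgeR adjusted p = 0.55, DESeq2 0.023). Its groups overlapped through WT 2, the WT heart with the least *Myl7*.

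*Hamp*, the iron hormone hepcidin, had a profile of the same kind and was at 10.3, 1.08, 12.8 and 28.5 CPM in WT and at 0.615, 1.66, 0.403 and 0.49 CPM in *Mtm1*-/y (-4.05, edgeR adjusted p = 0.46, DESeq2 0.0051). *Inhba*, a subunit of activin A, was at 7.95, 2.19, 7.35 and 8.84 CPM against 2.17, 2.53, 2.30 and 1.54 CPM (-1.62, edgeR adjusted p = 0.55, DESeq2 0.0091). Both overlapped through WT 2, and both were called by edgeR when WT 2 was left out, *Hamp* at -4.44 (edgeR adjusted p = 0.039) and *Inhba* at -1.91 (edgeR adjusted p = 0.018). With the atrial score as a covariate, DESeq2 still called *Hamp* and called neither *Inhba* nor *Ryr3*.

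Most hepatocyte markers had estimates on the other side of 0, though their summed level overlapped between the genotypes. The sums were 99.1, 13.1, 61.3 and 184 CPM in WT, with WT 4 the highest of all hearts, and 181, 102, 66.5 and 75.9 CPM in *Mtm1*-/y. Of 14 hepatocyte markers, all tested, 4 had an estimate below 0, and an unadjusted p under 0.05 was met by 10 that were higher and 1 that was lower, beside 3.05% and 5.83% of all genes. The libraries of 7 did not overlap and were higher (2.1% of all genes), and the median log2 fold change was 2.2 (1.93 without WT 4 and 3.65 without WT 1). None passed edgeR and DESeq2 called 2. *Alb*, serum albumin, was at 25.1, 0.951, 2.59 and 2.79 CPM in WT and at 102, 46.6, 27.9 and 36.5 CPM in *Mtm1*-/y (2.78, edgeR adjusted p = 0.55, DESeq2 0.30). WT 1 almost reached the lowest *Mtm1*-/y heart, and without it edgeR called 18 genes higher, among them *Alb* (4.66, edgeR adjusted p = 0.045), *Apoa1* (4.35, 0.038) and *Fgg* (4.32, 0.045), which make plasma lipoprotein and fibrinogen. *Hpx*, the haem carrier hemopexin, was at 0.938, 0.285, 0.623 and 0.507 CPM against 3.51, 1.54, 1.77 and 1.77 CPM (1.88, edgeR adjusted p = 0.46, DESeq2 0.0038).

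These levels were a small share of what liver holds. In plain CPM, *Alb* was between 0.937 and 25.9 in WT hearts, between 27.5 and 100 in *Mtm1*-/y hearts and between 90600 and 104000 in WT liver. In gastrocnemius it was between 15.4 and 56.8 in WT and between 2.64 and 39.5 in *Mtm1*-/y. The diaphragm libraries varied most, from 284 to 26700 in WT and from 583 to 31900 in *Mtm1*-/y. *Apob* (2.96), *Fgb* (2.68) and *Cyp2c29* (2.77), of which the first is a lipoprotein component and the last a drug-metabolising enzyme, all had log2 fold changes above 0 with groups that did not overlap. DESeq2 called each of these 3 genes (adjusted p between 0.0069 and 0.035), and *Mtm1*-/y 1 was the highest heart in each. *Ahsg* and *Cyp2e1*, also on the hepatocyte list, went against it with estimates of -1.71 and -1.69 and were highest in WT 4 (102 and 63.0 CPM). Whether liver RNA reached the samples was not tested.

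*Arrdc2* had the smallest edgeR p after *Mtm1* (0.00016, unadjusted). It encodes an alpha-arrestin, an adaptor for the ubiquitination of membrane proteins, and lies at chromosome 8, 70835129 to 70839720. The level was 25.1, 22.6, 27.3 and 39.5 CPM in WT and 9.77, 14.4, 9.99 and 13.9 CPM in *Mtm1*-/y. Each WT heart was above each *Mtm1*-/y heart, and WT 2, the lowest, was still above *Mtm1*-/y 2. The log2 fold change was -1.25 (SE 0.20, 95% interval -1.71 to -0.79), with an edgeR adjusted p of 0.35 and a DESeq2 adjusted p of 1.3e-05, and DESeq2 called it in all 8 fits without 1 library. DESeq2 did not call it with the atrial score as a covariate (-0.85, DESeq2 adjusted p = 0.0072, below the fold asked) or with the white adipocyte score (-0.80, DESeq2 adjusted p = 1). The other alpha-arrestins were closer to 0, *Arrdc3* at -0.25, *Arrdc1* at -0.21, *Arrdc4* at 0.16 and *Txnip* at -0.24.

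Glucocorticoid-responsive genes, a list that holds *Arrdc2*, were mostly lower. Of 20 genes, 17 had an estimate below 0, 10 were lower and 0 higher at an unadjusted p under 0.05, and 7 were lower with no overlap, beside 5.83% and 2.16% of all genes that were lower by these criteria. The median was -0.45 and lay between -0.53 and -0.32 when any 1 library was left out. It was -0.29 with the atrial score as a covariate and -0.27 with that of white fat. None passed edgeR, and DESeq2 called 3 of them (*Arrdc2*, *Gadd45b* and *Mt2*). *Gadd45b*, a stress sensor, was at 8.36, 7.20, 4.62 and 9.79 CPM against 3.22, 4.47, 3.06 and 4.11 CPM (-1.01, edgeR adjusted p = 0.55, DESeq2 0.020). Not picked by the rule but by their values, *Tsc22d3* (-0.39, edgeR adjusted p = 0.55) and *Fkbp5* (-1.30, edgeR adjusted p = 0.55), both common readouts of the glucocorticoid receptor, lay on the same side of 0, and *Sgk1* (0.42) and *Errfi1* (0.35) on the other.

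Metallothioneins, small cysteine-rich proteins that bind zinc and copper and are induced by metals and by glucocorticoids, were part of this group. *Mt1* was at 109, 90.7, 113 and 153 CPM in WT and at 64.8, 70.5, 52.8 and 58.8 CPM in *Mtm1*-/y. The highest *Mtm1*-/y heart was below the lowest WT heart, and the log2 fold change was -0.92 (SE 0.16, edgeR adjusted p = 0.35, DESeq2 0.00023). *Mt2* was at 22.1, 20.2, 34 and 64.4 CPM in WT and at 15.5, 10.8, 9.87 and 17.6 CPM in *Mtm1*-/y (-1.39, SE 0.37, edgeR adjusted p = 0.55, DESeq2 0.023). Of the 11 metallothionein and zinc handling genes, the others were mixed and the median was -0.02, with *Mtf1*, the metal sensor that induces metallothioneins, at 0.11.

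The promoters of both genes are shown because both genes were lower and they neighbour each other on chromosome 8. The windows are the 250 bases before the RefSeq start in GRCm38.p6, plus strand, chr8:94178839-94179088 for *Mt1* and chr8:94172368-94172617 for *Mt2*. Capitals mark matches, on either strand, to the core of the metal response element, TGCGCNC or TGCACNC.
Mt1: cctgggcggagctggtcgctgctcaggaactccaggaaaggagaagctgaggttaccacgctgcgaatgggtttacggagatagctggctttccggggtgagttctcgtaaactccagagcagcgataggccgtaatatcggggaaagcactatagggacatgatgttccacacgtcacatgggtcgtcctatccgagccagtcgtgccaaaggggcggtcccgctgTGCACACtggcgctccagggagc
Mt2: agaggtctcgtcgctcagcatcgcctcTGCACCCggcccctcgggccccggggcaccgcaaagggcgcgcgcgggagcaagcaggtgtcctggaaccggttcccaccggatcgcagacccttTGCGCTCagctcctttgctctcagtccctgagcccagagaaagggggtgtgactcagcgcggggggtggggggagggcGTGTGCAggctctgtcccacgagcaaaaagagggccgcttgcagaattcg
The *Mt1* window holds 1 match and the *Mt2* window 3. Only these 250 bases were searched, so matches past the RefSeq start or farther upstream are not counted. Of 32817 mouse promoter windows, 21.4% hold at least 1 and 1.26% at least 3. The glucocorticoid half-site AGAACA, present in 16.1% of windows, is in neither, which says only that these letters are not in these bases.

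Further genes had groups that did not overlap and a DESeq2 adjusted p under 0.05. *Hif3a*, a member of the hypoxia-inducible factor family, was at 15.3, 11.1, 14.6 and 15.8 CPM in WT and at 9.70, 6.57, 5.68 and 7.20 CPM in *Mtm1*-/y (-0.96, edgeR adjusted p = 0.35, DESeq2 0.0013). *Pfkfb3*, which makes the activator of phosphofructokinase, was at 33.6, 21.9, 25.9 and 35.8 CPM against 15.3, 17.8, 14 and 19.8 CPM (-0.81, edgeR adjusted p = 0.46, DESeq2 0.0091). The other hypoxia-responsive genes gave no common direction, as 10 of 17 tested had an estimate above 0 and the list's median was 0.04. *Map3k6*, a stress kinase named after its values were seen, was at 21.3, 20.6, 28.7 and 34.4 CPM against 13.6, 10.3, 7.38 and 14.4 CPM (-1.20, edgeR adjusted p = 0.35, DESeq2 0.0013).

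Among genes with higher estimates edgeR called 0, and 34 had a log2 fold change over 0.5, at least 1 CPM and no overlap. *Kcnj2*, the main channel of the inward rectifier current that sets the resting potential of ventricular cells, was at 56.7, 54.7, 62.8 and 55.8 CPM in WT and at 76.5, 94.2, 71.7 and 79.8 CPM in *Mtm1*-/y. The groups did not overlap and the log2 fold change was 0.49 (SE 0.09, edgeR adjusted p = 0.35, DESeq2 0.0039), which is below the fold asked of a call. *Kcne1*, a subunit of the slow delayed rectifier, was at 30.0, 31.4, 27.2 and 11.1 CPM against 19.6, 9.89, 10.1 and 10.5 CPM (-0.99, edgeR adjusted p = 0.55). Of 23 cardiac channel genes, an unadjusted p under 0.05 was met by 2 that were higher and 4 that were lower, and the median was -0.17 (-0.36 without *Mtm1*-/y 2 and -0.03 without WT 3). *Meox2*, a homeobox factor of heart endothelium, was at 17.4, 17.2, 12.2 and 13.8 CPM against 26.6, 20.5, 25.2 and 26.1 CPM (0.70, SE 0.14, edgeR adjusted p = 0.35, DESeq2 0.0033). *Dct*, a melanin enzyme, was at 1.76, 3.33, 1.48 and 0.951 CPM against 4.85, 2.18, 8.62 and 10.9 CPM (1.82, edgeR adjusted p = 0.55, DESeq2 0.036). Its groups overlapped through *Mtm1*-/y 2 and WT 2. Of 5 melanocyte markers 2 were tested, and the one beside *Dct* went the other way at -2.98. The summed level of the 5 was highest in WT 4 (16.9 CPM), against 5.1 to 11.1 CPM in *Mtm1*-/y.

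**Figure D3:**
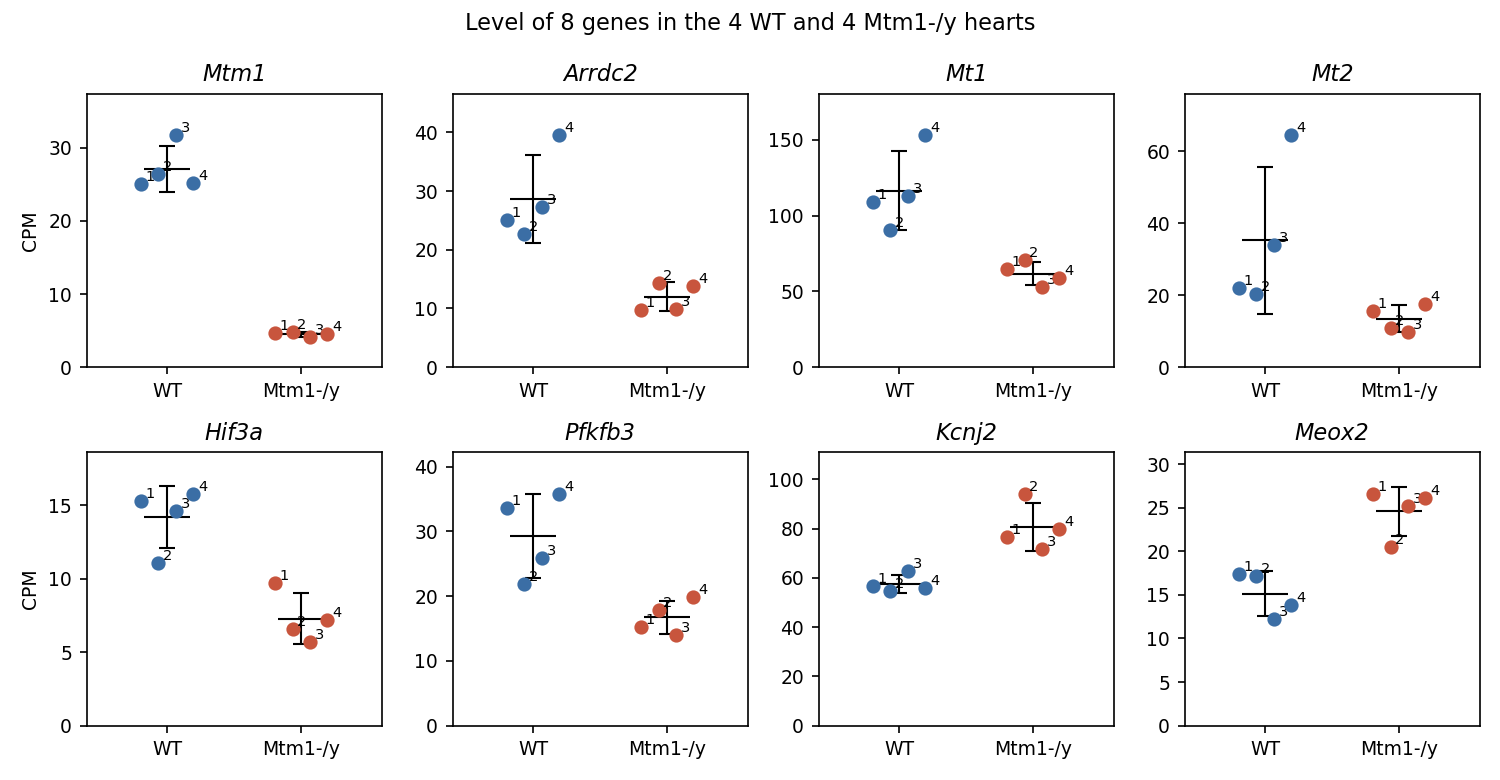
Level in CPM of 8 named genes in the 4 WT and 4 Mtm1-/y hearts, with 1 numbered point per library and bars for the mean and SD. In each of the 8 genes no WT heart overlaps a Mtm1-/y heart, with Kcnj2 and Meox2 higher and the other 6 lower in Mtm1-/y, and Mtm1 has the widest gap.

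No sarcomere gene of the list was called. Among 25 sarcomere and Z-disc genes, 0 were called by edgeR or DESeq2 and 20 had intervals within -1 to 1. An unadjusted p under 0.05 was met by 1 higher and 1 lower gene, beside 3.05% and 5.83% of all genes. *Myh6* had an estimate of -0.01 (95% interval -0.31 to 0.29), *Myh7*, the slow myosin known to rise in a stressed mouse heart, one of -0.28 (-0.70 to 0.13), and *Actc1* one of 0.18. For the calcium pump *Atp2a2* the estimate was 0.15 (-0.11 to 0.40). Of 18 cardiac stress and fetal genes 17 were tested, 13 lay below 0 and the median was -0.50, or -0.33 without WT 4. Of the 17, 6 were lower and 1 higher at an unadjusted p under 0.05, beside 5.83% and 3.05% of all genes. None was called by edgeR or DESeq2, and 3 were lower with no overlap (2.16% of all genes). *Ankrd1*, a stretch-responsive repeat protein named after its values were seen, was at 3662 CPM in WT 4 and between 199 and 720 CPM in the other 7 hearts.

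Oxidative metabolism is the main energy source of the heart, and the medians of its gene lists were slightly above 0. The medians were 0.20 for 18 tricarboxylic acid cycle enzymes (all 18 above 0), 0.19 for 24 fatty acid oxidation genes, 0.11 for 36 complex I subunits and 0.14 for 37 subunits of complexes II to V. Without WT 4 they were 0.09, 0.08, -0.04 and 0.02, and with the atrial score as a covariate 0.01, 0.04, -0.10 and -0.08. Other lists had medians of the same size, 0.15 for 16 cardiomyocyte markers, 0.15 for 24 calcium handling genes and 0.14 for 20 glycolytic genes. No member was called by edgeR or DESeq2, and the interval of each member lay within -1 to 1. An unadjusted p under 0.05 was met by 3 higher and 1 lower gene, beside 3.05% and 5.83% of all genes. *Ogdh*, a cycle enzyme, had a log2 fold change of 0.39 (edgeR adjusted p = 0.55), at 2630, 3080, 2840 and 1850 CPM in WT and at 3390, 3000, 3380 and 3820 CPM in *Mtm1*-/y.

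**Figure D4:**
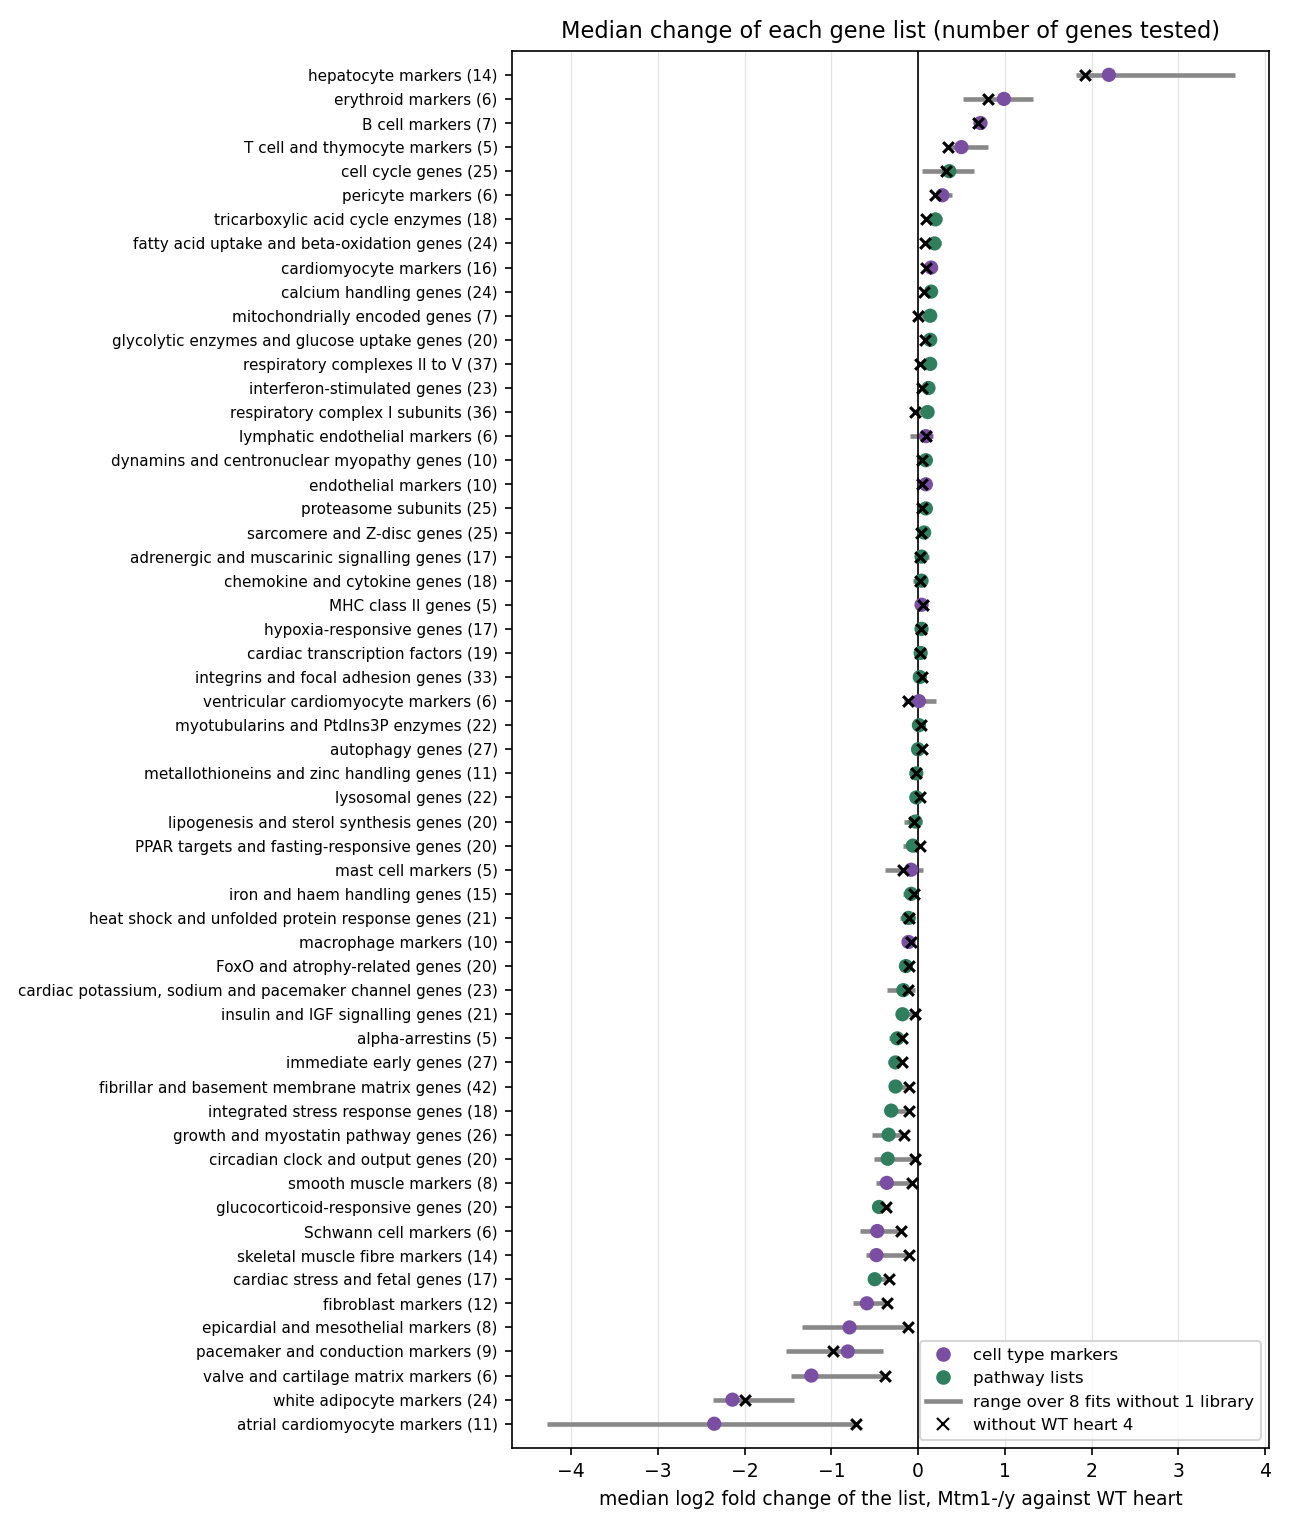
Median log2 fold change of Mtm1-/y against WT hearts for each gene list with at least 5 genes tested (circles, horizontal axis), with its range over the 8 fits without 1 library (grey lines) and its value without WT 4 (crosses). The fat (-2.14 and -2.0) and hepatocyte (2.2 and 1.93) lists keep their place without WT 4, the atrial list moves from -2.35 to -0.72, and most pathway lists lie near 0.

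Matrix and stromal lists had medians below 0 that lay closer to 0 without WT 4. The 12 fibroblast markers all had estimates below 0, with a median of -0.59 that became -0.36. Of the 12, 6 were lower at an unadjusted p under 0.05, beside 5.83% of all genes, and 0 were lower with no overlap. For 42 matrix genes the median was -0.26, with 27 below 0, and it became -0.11. Of the 42, 6 were lower at an unadjusted p under 0.05, and 2 were lower with no overlap, beside 2.16% of all genes. The collagen *Col3a1* was at 1130, 660, 963 and 1590 CPM in WT and at 957, 738, 692 and 862 CPM in *Mtm1*-/y (-0.42, edgeR adjusted p = 0.55). Integrins and focal adhesion genes (33 genes) had a median of 0.02 and none was called by edgeR or DESeq2. Of the 33, 6 were lower and 0 higher at an unadjusted p under 0.05, beside 5.83% and 3.05% of all genes. With no overlap 2 were lower (2.16% of all genes), and the lowest estimate was -1.27. *Itgb1*, the common beta subunit of the receptors for matrix, had an estimate of 0.07 with an interval of -0.12 to 0.26.

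No immune cell marker list had a member called by edgeR. *C1qa*, a complement subunit made by macrophages, was at 48.6, 43.3, 44.8 and 51.9 CPM in WT and at 37.4, 36.8, 35.8 and 35 CPM in *Mtm1*-/y (-0.38, SE 0.07, edgeR adjusted p = 0.35, DESeq2 0.013), with no overlap. The 10 macrophage markers had a median of -0.11, and all 10 intervals lay within -1 to 1. All 7 B cell markers were above 0 (median 0.72, 0.69 without WT 4), 4 of them with no overlap (2.1% of all genes did so and were higher) and none called by edgeR or DESeq2. Their summed level overlapped, at 10.8 to 20.6 CPM in WT and 17.6 to 20.8 CPM in *Mtm1*-/y. The 5 T cell markers tested, of 11, were all above 0 with a median of 0.50. So were the 3 neutrophil markers tested, of 7, with a median of 1.02 and a lowest estimate of 0.23. Both lists had low sums that overlapped. They were 2.09 to 5.21 against 4.35 to 5.28 CPM for T cells and 1.87 to 4.13 against 2.90 to 6.73 CPM for neutrophils. The 6 erythroid genes tested had a median of 0.99, which was 0.52 without *Mtm1*-/y 1 and 0.44 with the atrial score as a covariate, and the beta globin *Hbb-bs* was at 1760, 1500, 377 and 632 CPM in WT and at 3830, 1910, 1250 and 1400 CPM in *Mtm1*-/y (0.97, edgeR adjusted p = 0.55). Its near copy *Hbb-bt* shares sequence with it, and reads that fit both equally were left out, since only uniquely mapped reads were counted.

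Degradation pathways, through which cells turn over protein and organelles, had medians near 0. The median was 0.00 for 27 autophagy genes, -0.02 for 22 lysosomal genes and 0.09 for 25 proteasome subunits, and the interval of each member lay within -1 to 1. None of these genes was called by edgeR or DESeq2. An unadjusted p under 0.05 was met by 6 that were higher and 1 that was lower, beside 3.05% and 5.83% of all genes. *Ctsd*, a lysosomal protease, had an estimate of 0.14, and the autophagy receptor *Sqstm1* one of -0.09. For 20 FoxO and atrophy genes the median was -0.14, and *Gadd45b* was the 1 member called by DESeq2. The 25 cell cycle genes had a median of 0.36 with 21 estimates above 0. It was 0.04 without *Mtm1*-/y 1, 0.64 without *Mtm1*-/y 2, 0.20 without WT 3 and -0.27 with the atrial score as a covariate. *Mki67*, a marker of dividing cells named after its values were seen, was highest in *Mtm1*-/y 1 (24.2 CPM) and lowest in *Mtm1*-/y 2 (3.09 CPM).

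Clock genes differed between hearts within a genotype. *Dbp*, a transcription factor at the output of the clock, was at 41.2, 26.2, 17.2 and 146 CPM in WT and at 39.1, 55.2, 6.77 and 10.1 CPM in *Mtm1*-/y. *Arntl* (BMAL1), which peaks at the opposite time of day, was at 17.6, 21.1, 24.2 and 6.24 CPM against 15.5, 20.8, 45.0 and 31.2 CPM. WT 4 was thus highest in *Dbp* and lowest in *Arntl*, while *Mtm1*-/y 3 had the reverse, and these genes were chosen after their values were seen. The median of 20 clock and output genes was -0.35, or -0.03 without WT 4, and none was called by edgeR or DESeq2 (1 lower at an unadjusted p under 0.05). Glucocorticoid-responsive genes also follow the time of day, and the hour at which each animal was killed is not given in the sources used here, so its part in those genes was not tested.

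**Figure D5:**
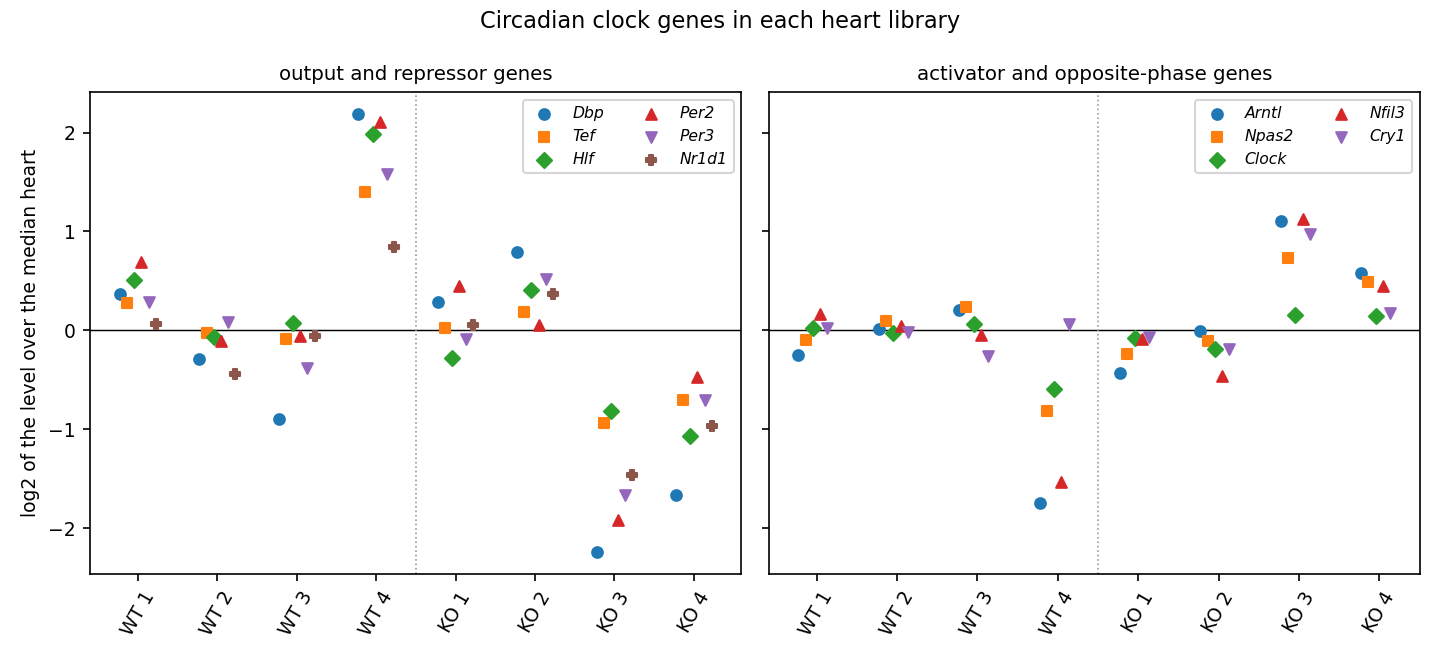
Level of 11 clock genes in each of the 8 hearts, as the log2 of the level over that of the median heart, with 1 mark per gene and library and output genes and opposite-phase genes in separate panels. In WT 4 the output genes lie above and Arntl lies below the median heart, and in Mtm1-/y 3 this order is turned.

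The genotype effect was set against that in the gastrocnemius, a limb muscle, of the same genotypes in a joint fit of 16 libraries. It differed between the tissues in 1286 of 16627 genes (7.73%), 315 with a higher (1.89%) and 971 with a lower (5.84%) effect in the heart. Whether the same mice gave both tissues is not given in the sources used here, so the fit took the 16 libraries as independent, and with the replicate number as a block the effect differed in 938 genes. *Mtm1* itself fell in both, by 2.58 in the heart and by 2.08 in the gastrocnemius, a difference of -0.50 (edgeR adjusted p = 0.023). Median estimates of 25 white adipocyte markers were -2.2 in the heart and 0.92 in the gastrocnemius. Only the difference was tested, and no marker passed edgeR in the heart alone. Of the 25, 17 had a lower effect in the heart, *Plin1* at -3.07 against 1.49 (edgeR adjusted p of the difference 0.001). Their sums in plain CPM overlapped in gastrocnemius (WT 4130 to 5260, *Mtm1*-/y 4370 to 5320). In the diaphragm they were 4890 to 13200 in 4 WT and 2580 to 6600 in 3 *Mtm1*-/y libraries. All 5 MHC class II genes and 8 of 10 macrophage markers also had a lower effect in the heart, where the list medians were 0.05 and -0.10. *Mt1* was at -0.91 in the heart and 1.52 in the gastrocnemius (edgeR adjusted p of the difference 0.0017).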

How the data were processed

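The authors made libraries of poly(A) RNA with strand kept, sequenced single-end reads, and processed them with bcl2fastq 2.17.1.14, cutadapt 1.10, STAR 2.5.3a against mm10 and HTSeq 0.6.1p1, by the submitters' notes and methods. The deposited values are raw counts of uniquely mapped reads per Ensembl gene. All 36103 IDs matched a GENCODE M21 symbol. Hearts held 25244426 to 32028964 counts.

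Here the 8 heart libraries were grouped by their labels and fitted alone with edgeR 4.0.16 (R 4.3.3; filterByExpr with a minimum count of 10, TMM, quasi-likelihood F test, Benjamini-Hochberg). DESeq2 1.42.0 was an alternative, as were fits without each library, without filter and with marker scores (mean log2 CPM plus 1) as covariates. Scripts were tested on simulated data. By the study's methods the mice numbered 4 in each heart group, so p-values measure the spread between mice. Intervals are 95%.

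The members and gene lists were chosen with earlier results of these data known. Named genes were *Mtm1*, *Dnm2*, *Arrdc2*, *Nppa*, *Myl7* and *Plin1*; the 10 of smallest p per direction with a log2 fold change over 0.5, at least 1 CPM and no overlap; up to 3 called members per list, or the 2 most abundant; and up to 8 genes called in each alternative named above. Some genes that met the rule are not reported here. Other genes named within a list were chosen after their values were seen. Promoters came from RefSeq tables of GRCm38.p6.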

Additional observations from a re-analysis of the deposited data

Results flagged for a closer look

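Among the named genes, 44 groups of 4 hearts were looked at for a heart that stood apart from the other 3 by Dixon's criterion, which chance meets in about 1 in 20 groups. Atrial genes gave *Nppa* at 19100 CPM in WT 4 (others at most 2450 CPM) and at 3100 CPM in *Mtm1*-/y 2 (others at most 629 CPM), and *Myl7* at 4970 CPM in WT 4 and at 1280 CPM in *Mtm1*-/y 2. Liver genes gave WT 1 in the WT group, with *Apob* at 0.863 CPM and *Fgb* at 1.5 CPM. In the knockout group they gave *Mtm1*-/y 1, with *Apob* at 4.12 CPM, *Fgb* at 6.15 CPM, *Mat1a* at 3.18 CPM and *Hpx* at 3.51 CPM. *Mtm1*-/y 1 also lay below the other knockout hearts in *Gm9892* (1.09 CPM, others from 1.42 CPM) and *Nnat* (0.181 CPM, others from 0.396 CPM), and *Mtm1*-/y 2 lay above them in *Tmem45b* (0.356 CPM, others at most 0.113 CPM).

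The genotype effect of these named genes differed between heart and gastrocnemius by the edgeR test of the difference, given as heart minus gastrocnemius on the log2 scale. White adipocyte markers had the lower effect in the heart, with *Plin1* at -4.56, *Cidec* at -4.21, *Adipoq* at -3.95 and *Pck1* at -3.36, and so had *Tmem45b* at -5.08, *Nnat* at -4.24 and *Hp* at -3.39, which are not on that list. For *Mt1* the difference was -2.43 and for *Mtm1* it was -0.5. Liver genes had the higher effect in the heart, with *Fgb* at 4.77, *Apob* at 4.71, *Mat1a* at 3.83 and *Hpx* at 3.22, followed by *Gm9892* at 1.15 and the B cell adaptor *Blnk* at 1.05. The edgeR adjusted p of these differences lay between 0.00083 for *Adipoq* and 0.023 for *Mtm1*.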

How the results depend on the processing

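Of 4061 values of 131 named genes under an alternative, 3448 stayed on the same side of 0 and of the threshold, 299 changed sign without passing a test, 312 passed only under the alternative, 2 changed sign and passed, and 0 passed only in the fit reported. The counts of called genes depended on the tool. DESeq2 called 15 higher and 53 lower, and edgeR on all 30 libraries called 5 lower. DESeq2 called 3 higher and 9 lower with the atrial score, 30 higher with the white adipocyte score, and, in alternatives added after seeing the data, 35 higher and 2 lower with both scores and 14 higher and 124 lower without the most atrial heart of each genotype (WT 4 and *Mtm1*-/y 2). With 1 library left out, edgeR called 0 to 18 higher and 1 to 10 lower, and DESeq2 called 1 to 63 higher and 25 to 232 lower. Without WT 1, 2, 3 and 4 in turn DESeq2 called 63, 29, 3 and 6 higher and 32, 232, 33 and 25 lower, and without *Mtm1*-/y 1, 2, 3 and 4 it called 1, 16, 6 and 5 higher and 28, 177, 27 and 31 lower. The edgeR extremes were 18 higher without WT 1 and 10 lower without WT 2. *Nppa* changed sign with the atrial (0.18) and white adipocyte (1.59) scores, as did *Myl7* (0.04 and 3.62), and the atrial score is made of these same genes. Without 1 library *Nppa* was between -4.28 (without *Mtm1*-/y 2) and -0.72 (without WT 4), and *Myl7* between -8.28 and -0.73 for the same libraries. *Myl7* was also at -7.34 with the replicate block, -6.66 without the most atrial heart of each genotype and -6.03 with limma voom. *Plin1* passed with DESeq2 (-3.08) and with edgeR without WT 2 (-3.36). Without 1 library its edgeR estimate was between -3.36 and -2.76, the latter without WT 4. With DESeq2 and the atrial score, *Cilp2* (1.21) and *Gja5* (1.1) changed sign and passed. The cause of these changes was not tested.

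The replicate numbers of the labels were not taken as pairs in the fit reported. Same-numbered hearts had correlations of 0.256, -0.545, -0.042 and -0.205, and WT 4 and *Mtm1*-/y 2 had one of 0.504. Correlations between single libraries that differ in atrial RNA cannot show whether the numbers pair the mice. With the replicate number as a block, edgeR called 0 higher and 1 lower in the heart, and the genotype effect differed between heart and gastrocnemius in 938 genes in place of 1286. Without 1 library that count was 977 to 1639. The interval lay within a log2 fold change of -1 to 1 for 81.4% of genes tested, and larger changes were not bounded for the others.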
